A study of Mus musculus with 7 samples.

Results

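The collagen and laminin genes of the mouse were examined in RNA-seq counts of dorsal midbrain tissue taken from 7 mice, 3 controls and 4 with a conditional knockout (cKO) of *Brn3b*. The genes were chosen by name. They were the protein-coding genes whose symbol is Col, a number, a and a number, together with the genes of the laminin alpha, beta and gamma chains, and a gene was kept when at least 3 libraries held 10 or more counts of it. All 55 genes that matched the names passed this minimum, 44 of them collagen genes and 11 laminin genes, out of 52636 genes in the counts. Control mice carried 1 floxed and 1 wild-type allele of *Brn3b*, a POU-domain transcription factor gene, and cKO mice carried 1 floxed and 1 null allele. All 7 mice carried *En1-Cre*, which is active in the midbrain and hindbrain, so that controls lost 1 allele and cKO mice both alleles in cells of that lineage, and every cell of a cKO mouse carried the null allele. The controls were A2 and A6, taken at postnatal day (P) 4, and A4, taken at P3. The cKO mice were B1 and B8, taken at P4, and B7 and B9, taken at P2, so that no control had the age of B7 and B9.

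Collagens are secreted or membrane-bound proteins built from 3 chains that wind into a triple helix. Fibrillar collagens form the fibrils of connective tissue, which in the brain is largely found in the meninges and around vessels. Collagen IV forms the network of basement membranes, and laminins, each assembled from an alpha, a beta and a gamma chain, form a second network there to which cells bind. In the brain these sheets lie beneath the pial surface and around blood vessels. A small number of collagens are made by neurons, among them collagen XXV, which spans the neuronal membrane, and collagen XIX, which interneurons secrete.

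Each library held between 23588248 and 87572085 counts on genes. *Brn3b* (*Pou4f2*) stood at 46.5, 47.4 and 45.8 CPM (counts relative to library size) in A2, A4 and A6 and at 9.65, 9.67, 10.6 and 11.6 CPM in B1, B7, B8 and B9, so the groups stood apart as labelled. All CPM values use library sizes scaled by TMM factors. All 9 dorsal midbrain markers, such as *Tfap2b* and *Pax7*, were tested, with a summed level of 1030 to 1530 CPM. One cKO library, B8, lay close to the controls for many genes, and a model that weights libraries by their fit gave it a weight of 0.167 against 0.857 to 2.89 for the other 6. Values of the collagen and laminin genes named below are also given without B8 where edgeR then called them. B8 was singled out by its values in these data, although its *Brn3b* level was like that of the other cKO mice. Leaving out the cKO mouse nearest the controls widens the gap between groups for many genes. Low p-values without B8 are therefore given only to show how far a result rests on that mouse, not as support for a difference.

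Collagen IV is encoded by 3 pairs of genes that lie head to head and are read away from each other. On GRCm38, *Col4a1* occupies chr8:11198423-11312826 on the minus strand and *Col4a2* occupies chr8:11312805-11449287 on the plus strand. *Col4a4* (chr1:82448423-82586849, minus) and *Col4a3* (chr1:82586921-82722059, plus) have 71 bases between their ends, and *Col4a6* (chrX:141165403-141474076, minus) and *Col4a5* (chrX:141475385-141689234, plus) have 1308. The starts of *Col4a1* and *Col4a2*, the most abundant of these pairs, overlap by 22 bases. The sequence is shown because both genes begin in it, read on the plus strand of GRCm38.p6 from RefSeq at chr8:11312805-11312826, with the first transcribed base of *Col4a2* in capitals on the left and that of *Col4a1*, which is read on the other strand, in capitals on the right.
*Col4a2* and *Col4a1* start overlap: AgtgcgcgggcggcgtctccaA

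Levels between genes were compared per exon length, as the mean over all 7 mice in CPM per kb. *Col4a2* stood at 23.5 CPM per kb (21.4 ± 3.28 in controls and 25.0 ± 3.68 in cKO mice, SD, n = 3 and 4). *Col9a2*, a chain of the fibril-associated collagen IX, stood at 22.1 (24.3 ± 1.07 and 20.5 ± 4.84) and *Col4a1* at 21.0 (16.5 ± 2 and 24.5 ± 5.02). These 3 were the highest in both groups, with *Col9a2* first in controls and *Col4a2* first in cKO mice, by less than the spread between mice. *Col1a1* stood at 11.6, *Col3a1* at 11.1, *Col26a1* at 10.9 and *Col1a2* at 8.24. The highest laminin genes were *Lamc1*, which encodes the gamma chain of most laminins, at 7.01 (5.12 in controls and 8.43 in cKO mice), and *Lamb2* at 5.94 (5.62 and 6.18). The 3 lowest were *Col4a3* at 0.0868, *Col17a1* at 0.114 and *Col10a1* at 0.114 CPM per kb. *Col10a1*, the collagen of cartilage about to turn to bone, was the only gene of the 55 that fell short of 10 counts in some libraries, in 2 of the 7.

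The comparison of genotypes addressed how the dorsal midbrain transcriptome differed where *Brn3b* was deleted. More collagen and laminin genes lay above the control level than below it in cKO mice, and the laminins and the basement membrane collagens had the highest medians. The log2 fold change (cKO minus control) was above 0 for 39 of the 55 genes and below 0 for 16. Its median was 0.38, against 0.00 over all 21817 genes tested. The median was 0.52 over the 11 laminin genes, 0.24 over the 44 collagen genes and 0.46 over the 8 collagens of basement membranes. None of the 55 genes passed an adjusted p of 0.05 in edgeR's quasi-likelihood test, in which 0.00458% of all genes were called (1 gene, *Brn3b*). At an unadjusted p under 0.05, the same fit had 17 of the 55 genes, 16 higher and 1 lower, where 30.4% of all genes passed, 16.7% higher and 13.7% lower. DESeq2 called 6 of the 54 genes it gave an adjusted p, all higher, where 7.41% of all genes were called higher. These were *Col4a5*, *Col12a1*, *Col19a1*, *Lama2*, *Lamb1* and *Lamc1*, and all 6 calls were lost when any 1 mouse other than B8 was left out.

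The 4 cKO mice all lay above the 3 controls for 14 of the 55 genes and all below them for 1, *Col26a1*. Over all genes the groups did not overlap in 14%, with 6.03% higher and 8.01% lower. All 15 of these genes were among the 52 whose mean reached 1 CPM, and over all genes at that level the shares were 5.95% higher and 8.72% lower. The number of calls turned on B8. Without it, edgeR called 23 of the 55 genes, 20 higher and 3 lower, but it also called 23.7% of all genes as higher and 23.1% as lower. limma-voom with sample weights called 19 higher and 4 lower, where it called 24.2% and 24.3% of all genes.

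**Figure D1:**
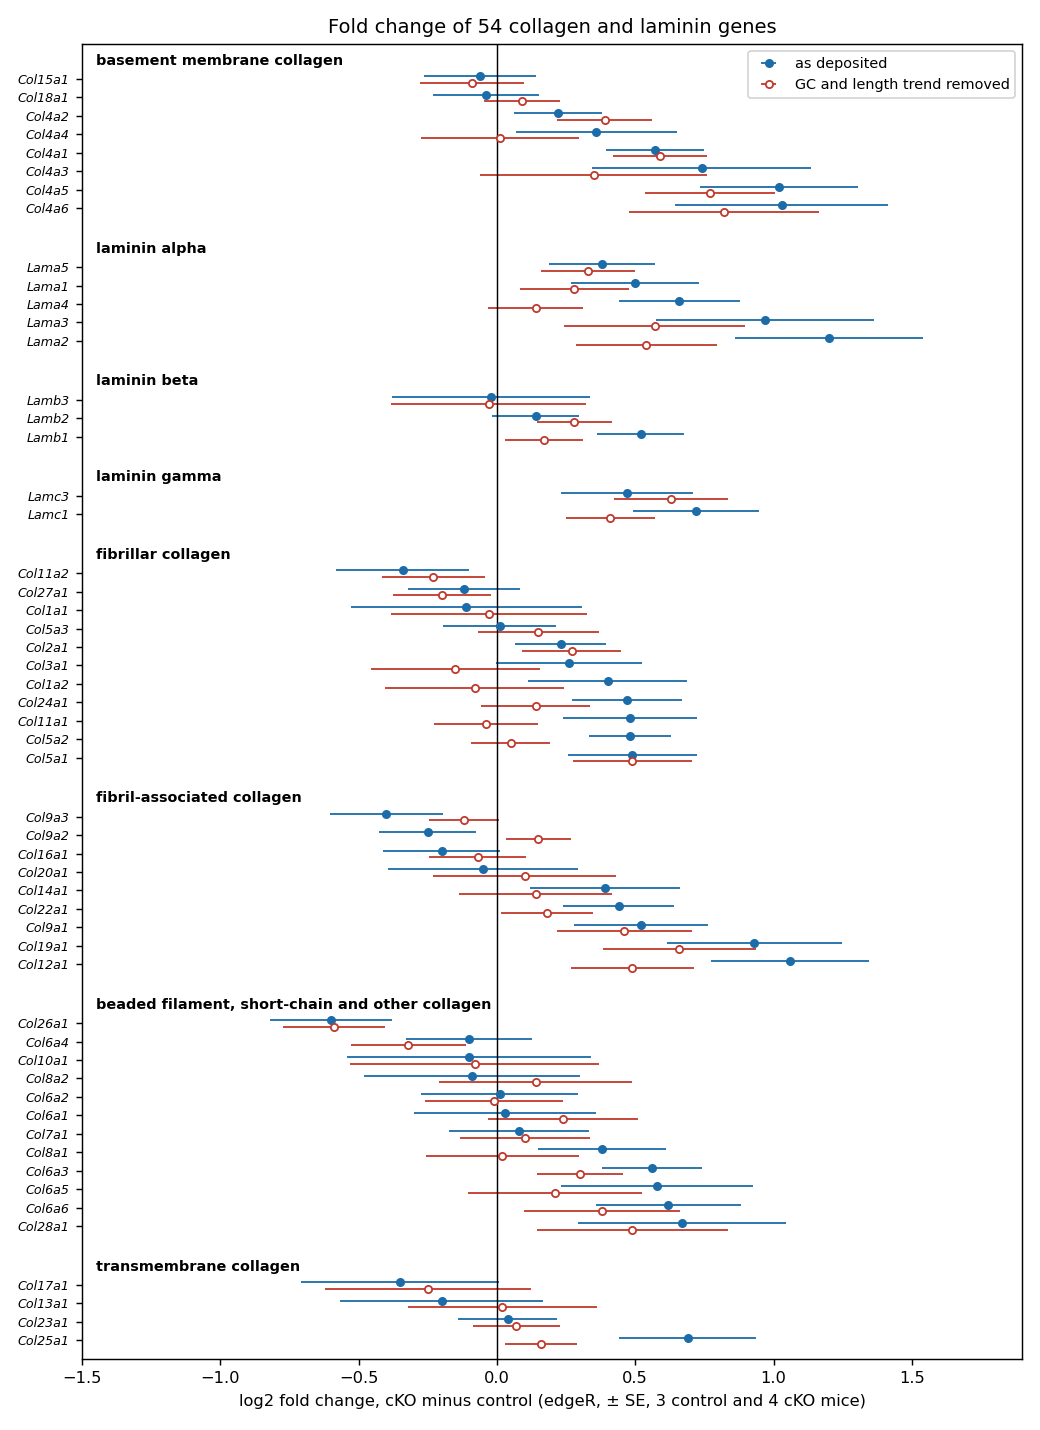
Log2 fold change (cKO minus control, edgeR) with its SE for 54 collagen and laminin genes, by role, in 3 control and 4 cKO mice. Filled points come from the counts as deposited and open points from the fit with the GC content and exon length trend of each library removed. All 5 laminin alpha genes lie above 0 in both, while the fibrillar collagens lie on either side of 0.

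The fold changes also followed base composition, which was measured here as the GC content of each gene's transcripts. Over the 55 genes, log2 fold change and GC content had a Spearman correlation of −0.66, against −0.33 over all 21817 genes; this is across genes, which share the same 7 libraries. The 28 genes with a GC content up to 53.83% had a median log2 fold change of 0.55, and 26 of them were above 0. The 27 genes above that content had a median of −0.02, and 13 were above 0. All genes tested showed the same order, with medians of 0.12 and −0.29 below and above that GC content. When the GC and length trend of each library was removed, the correlation over the 55 genes became −0.16, their median log2 fold change became 0.15 (all genes −0.04), and 40 of 55 log2 fold changes were above 0. In that fit edgeR called 0 of the 55 genes and 0.00458% of all genes. At an unadjusted p under 0.05 it had 8 higher and 1 lower, where 11% and 15.2% of all genes passed. With the trend removed, DESeq2 called *Col4a1* and *Col4a5* as higher and *Col26a1* as lower, where it called 3.54% of all genes higher and 5.48% lower. Without B8 and with the trend removed, edgeR called 10 higher and 1 lower, where it called 14.1% and 19.1% of all genes. In the values below, "with the GC trend removed" is short for removal of the GC content and exon length trend together. A change in a gene's value under this removal can therefore come from its GC content, its exon length or both. GC content and exon length were not removed separately. The part of base composition or exon length in the differences between genotypes was not tested.

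**Figure D2:**
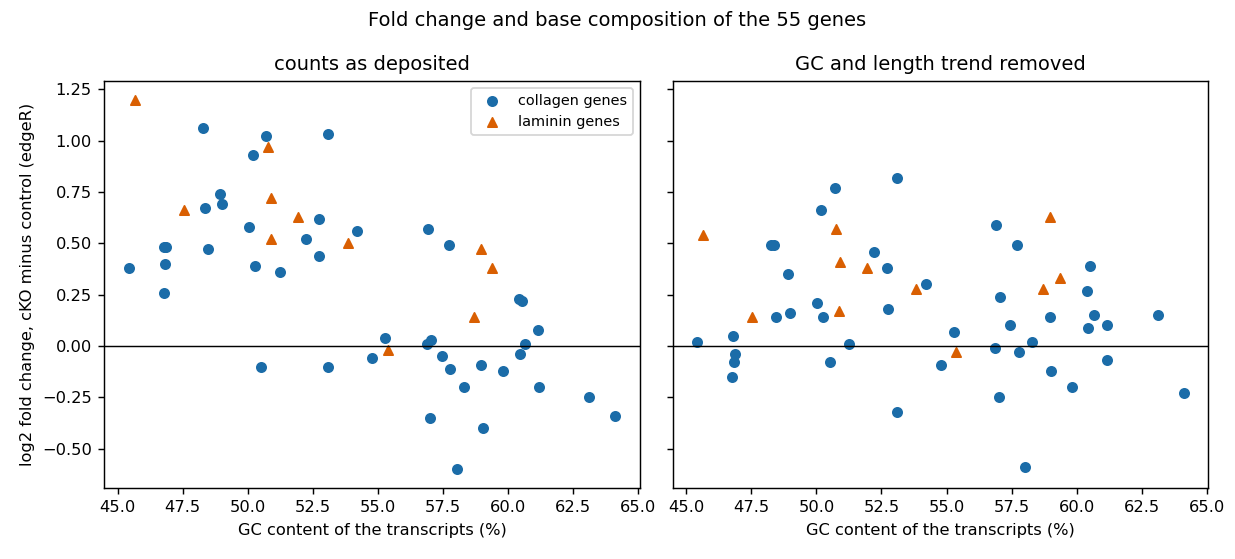
Log2 fold change (cKO minus control, edgeR, 3 control and 4 cKO mice) against the GC content of the transcripts in percent, 1 point per gene, for the counts as deposited (left) and with the GC and length trend of each library removed (right). The fall from left to right in the first panel (Spearman correlation −0.66) is largely absent from the second (−0.16).

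Among the basement membrane collagens, all 6 chains of collagen IV had a log2 fold change above 0 and the 2 others, collagens XV and XVIII, were near 0. In the values that follow, controls are given in the order A2, A4, A6 and cKO mice in the order B1, B7, B8, B9. *Col4a1* was measured at 106, 131 and 133 CPM in controls and at 160, 192, 147 and 231 CPM in cKO mice. Every cKO mouse lay above every control, with B8 the lowest, and the log2 fold change was 0.57 ± 0.177 (SE; edgeR adjusted p = 0.138, DESeq2 adjusted p = 0.0520). It was 0.65 without B8 (edgeR adjusted p = 0.00259) and 0.59 with the GC trend removed, where DESeq2 gave an adjusted p of 0.0410. *Col4a2*, its partner in the usual collagen IV trimer, stood at 117, 152 and 157 CPM in controls and at 143, 160, 159 and 200 CPM in cKO mice. Here the groups overlapped, and the log2 fold change was 0.22 ± 0.160 (edgeR adjusted p = 0.350). It was 0.39 with the GC trend removed, and 0.48 when B8 was left out as well (edgeR adjusted p = 0.0321).

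*Col4a5*, which encodes an X-linked chain of collagen IV that is altered in Alport syndrome, differed more between groups than *Col4a1*, and without overlap. It stood at 11.2, 13 and 15.6 CPM in controls and at 27.2, 23.3, 16.3 and 40.3 CPM in cKO mice. The 4 cKO mice lay above the controls, B8 by the least, and the log2 fold change was 1.02 ± 0.284 (edgeR adjusted p = 0.138, DESeq2 adjusted p = 0.0222). It was 1.19 without B8 (edgeR adjusted p = 0.000536) and 0.77 with the GC trend removed. Its neighbour *Col4a6* had a log2 fold change of 1.03 ± 0.385 (1.2 without B8, edgeR adjusted p = 0.00815) and overlapped between groups, and the low-level pair *Col4a3* and *Col4a4* had 0.74 and 0.36, or 0.35 and 0.01 with the GC trend removed. *Col15a1*, the collagen XV gene, stood at 40.6, 31.2 and 48.9 CPM in controls and at 46.7, 40.5, 38.0 and 28.9 CPM in cKO mice. Its groups overlapped, with a log2 fold change of −0.06 ± 0.202, and *Col18a1*, the gene for the collagen that carries endostatin, had −0.04 ± 0.191. The 8 basement membrane collagen genes summed to 311, 380 and 400 CPM in controls and to 427, 456, 415 and 555 CPM in cKO mice, without overlap.

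**Figure D3:**
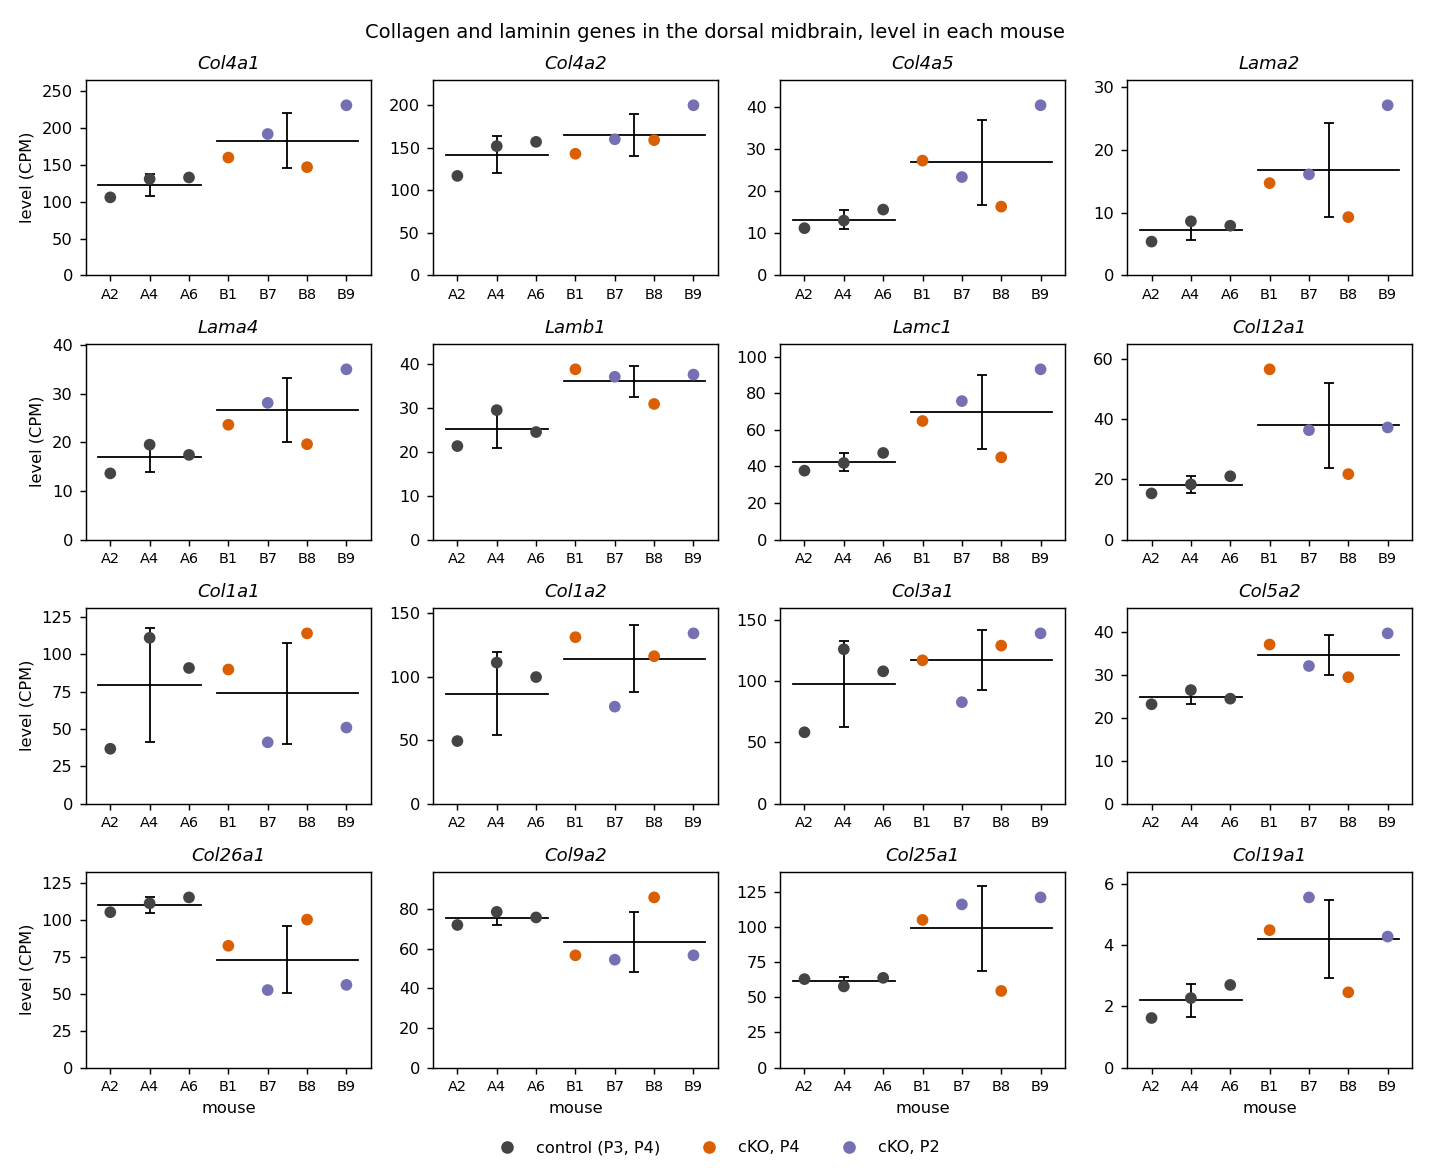
Level in CPM of 16 collagen and laminin genes in each of the 7 mice; the vertical axes start at 0, lines show group means and bars 1 SD (n = 3 controls and 4 cKO mice). Mouse B8 (P4) is the lowest cKO mouse for *Col4a5*, *Lama2*, *Lamc1*, *Col12a1* and *Col25a1*, and A2 and B7 are the lowest mice for *Col1a1*.

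All 5 laminin alpha genes had a log2 fold change above 0, with a median of 0.66. *Lama2*, the alpha chain of muscle, Schwann cell and vessel basement membranes, stood at 5.39, 8.62 and 7.92 CPM in controls and at 14.7, 16.1, 9.29 and 27.1 CPM in cKO mice. The groups did not overlap, with B8 the nearest to the controls, and the log2 fold change of 1.2 ± 0.340 was the largest of the 55 genes (edgeR adjusted p = 0.138, DESeq2 adjusted p = 0.0185). It was 1.40 without B8 (edgeR adjusted p = 0.000648) and 0.54 with the GC trend removed. *Lama4*, the alpha chain of endothelial basement membranes, stood at 13.6, 19.5 and 17.4 CPM in controls and at 23.6, 28.1, 19.6 and 35.0 CPM in cKO mice. The cKO mice lay above the controls, B8 by a margin of only 19.6 against 19.5 CPM in A4, and the log2 fold change was 0.66 ± 0.219 (edgeR adjusted p = 0.138). It was 0.78 without B8 (edgeR adjusted p = 0.00321) and 0.14 with the GC trend removed.

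*Lama1*, the alpha chain of laminin-111 in the pial basement membrane, stood at 13.8, 16.7 and 21.8 CPM in controls and at 19.7, 24.9, 20.4 and 33.7 CPM in cKO mice. The groups overlapped through A6, and the log2 fold change was 0.50 ± 0.232 (0.58 without B8, edgeR adjusted p = 0.0351, and 0.28 with the GC trend removed). *Lama5* stood at 6.47, 7.02 and 7.60 CPM in controls and at 11.6, 8.46, 8.15 and 8.36 CPM in cKO mice. Its groups did not overlap and B1 stood well above the other cKO mice, with a log2 fold change of 0.38 ± 0.190. *Lama3*, best known from the epidermal basement membrane, stood at 11.1, 4.90 and 8.73 CPM in controls and at 18.3, 26.1, 9.41 and 10.7 CPM in cKO mice. Its groups overlapped, B8 and B9 lying within the control range, and the log2 fold change was 0.97 ± 0.395 (1.16 without B8, edgeR adjusted p = 0.0104, and 0.57 with the GC trend removed).

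Among the beta chains, *Lamb1* and *Lamb2* differed in their values. *Lamb1*, the beta chain of laminin-111, stood at 21.3, 29.5 and 24.5 CPM in controls and at 38.8, 37.1, 30.9 and 37.6 CPM in cKO mice. No cKO mouse lay within the control range, and the log2 fold change was 0.52 ± 0.157 (edgeR adjusted p = 0.138, DESeq2 adjusted p = 0.0462). It was 0.59 without B8 (edgeR adjusted p = 0.00358) and 0.17 with the GC trend removed. *Lamb2*, the beta chain of mature vessels and synapses, stood at 29.9, 34.5 and 38.1 CPM in controls and at 41.3, 30.2, 38.7 and 40.2 CPM in cKO mice. Its groups overlapped through B7 (log2 fold change 0.14 ± 0.156). *Lamb3* was near 1 CPM, at 1.16, 1.42 and 1.39 CPM in controls and at 1.82, 1.33, 1.45 and 0.694 CPM in cKO mice, and its log2 fold change was −0.02 ± 0.358.

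The gamma chain genes *Lamc1* and *Lamc3* both had a log2 fold change above 0. *Lamc1* stood at 37.7, 41.9 and 47.4 CPM in controls and at 64.9, 75.8, 45.0 and 93.2 CPM in cKO mice. B8 lay within the control range and the other 3 cKO mice above it, and the log2 fold change was 0.72 ± 0.228 (edgeR adjusted p = 0.138, DESeq2 adjusted p = 0.0456). It was 0.88 without B8 (edgeR adjusted p = 0.000418) and 0.41 with the GC trend removed. *Lamc3* stood at 5.23, 8.32 and 6.72 CPM in controls and at 10.3, 6.44, 10.4 and 10.5 CPM in cKO mice. B7 lay within the control range and the other 3 cKO mice above it, and the log2 fold change was 0.47 ± 0.240. It was 0.63 with the GC trend removed, and 0.64 when B8 was left out as well (edgeR adjusted p = 0.0329). Summed over the 11 laminin genes, the level was 154, 179 and 190 CPM in controls and 255, 268, 202 and 310 CPM in cKO mice, without overlap. In bulk tissue, more cells of a type and more RNA per cell cannot be told apart.

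The fibrillar collagens of the meninges varied from mouse to mouse within both groups. *Col1a1*, one of the chains of collagen I, stood at 36.7, 111 and 90.8 CPM in controls and at 89.8, 41.0, 114 and 50.9 CPM in cKO mice. The groups overlapped fully, and the log2 fold change was −0.11 ± 0.416 (edgeR adjusted p = 0.871). *Col1a2*, the other chain, stood at 49.2, 111 and 99.6 CPM in controls and at 131, 76.3, 116 and 134 CPM in cKO mice. Its log2 fold change was 0.40 ± 0.286 and became −0.08 with the GC trend removed. *Col3a1*, whose product forms thin fibrils with collagen I in vessel walls and meninges, stood at 58.2, 126 and 108 CPM in controls and at 117, 82.8, 129 and 139 CPM in cKO mice. Its log2 fold change was 0.26 ± 0.264, or −0.15 with the GC trend removed, and A2 and B7 were the lowest mice for both *Col1a2* and *Col3a1*.

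The same pair of mice was low in markers of meningeal fibroblasts. All 15 genes of that list, among them *Dcn*, *Slc6a13* and *Aldh1a2*, were tested, and none was at 0 in all libraries. Their summed level was 143, 247 and 250 CPM in A2, A4 and A6 and 221, 106, 235 and 213 CPM in B1, B7, B8 and B9, with controls spanning 143 to 250 and cKO mice 106 to 235. Of the 15 markers, 4 had a log2 fold change above 0 and 11 below, with a median of −0.13. The part of meningeal tissue in the collagen levels was not tested. The 12 endothelial markers summed to 173 to 266 CPM in controls and 180 to 249 CPM in cKO mice, and the 12 mural cell markers to 275 to 337 and 297 to 352 CPM. Both sums overlapped between groups, but such sums lean on their most abundant genes. *Vtn*, the mural marker with the highest mean in controls, was named after its values were seen. It stood at 58.2, 125 and 85.3 CPM in controls and at 55.5, 30.9, 106 and 50.4 CPM in cKO mice. Its log2 fold change was −0.56, or −0.30 with the GC trend removed. Of the endothelial markers 7 had a log2 fold change above 0, with a median of 0.16, and of the mural markers 9, with a median of 0.19. The 2 genes with the lowest p in these lists were the receptors *Tek* (log2 fold change 0.63) and *Kdr* (0.64) for endothelium and *Abcc9* (0.92) and *Pdgfrb* (0.48) for mural cells, of which DESeq2 called *Abcc9* (adjusted p = 0.0305). With the GC trend removed, *Tek* was at 0.44, *Kdr* at 0.22, *Pdgfrb* at 0.54 and *Abcc9* at 0.50, the last no longer called (DESeq2 adjusted p = 0.0787). The endothelial marker with the highest CPM, *Cldn5*, was at −0.78, or −0.32 with the GC trend removed, and was chosen after its values were seen. Without B8, *Cldn5* was at −1.24 (edgeR adjusted p = 0.00031). In that fit edgeR called *Tek* (0.69, adjusted p = 0.01), *Kdr* (0.76, 0.00422), *Pdgfrb* (0.56, 0.0133) and *Abcc9* (1.08, 0.000989) as higher. For the meningeal list the 2 genes with the lowest p were *Nupr1* (−0.68) and *Twist1* (−0.59, or −0.09 with the GC trend removed), neither called. The part of vascular cells in the laminin and collagen IV levels was not tested.

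**Figure D4:**
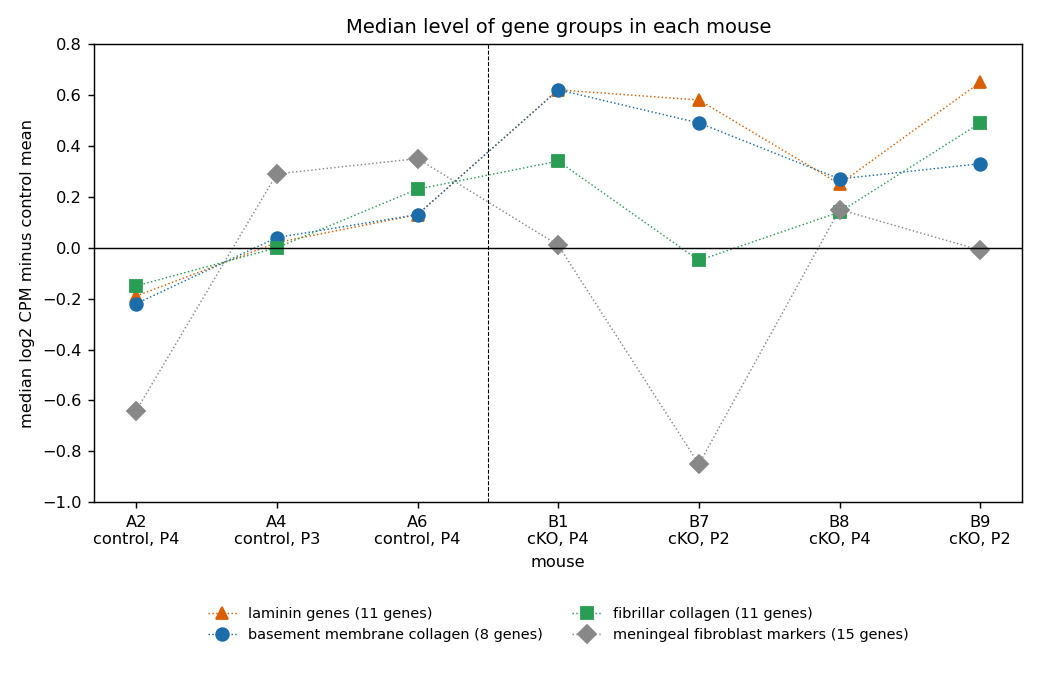
Median log2 CPM minus the control mean of laminin genes, basement membrane collagens, fibrillar collagens and meningeal fibroblast markers in each of the 7 mice; dotted lines only join the points of 1 gene group. The meningeal markers are lowest in A2 (−0.64) and B7 (−0.85), whereas the laminin genes lie between 0.25 and 0.65 in the 4 cKO mice and between −0.19 and 0.13 in the controls.

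Of the other fibrillar collagens, *Col5a2* and *Col24a1* separated the groups. *Col5a2*, a chain of the collagen V that starts collagen I fibrils, stood at 23.1, 26.4 and 24.4 CPM in controls and at 37.0, 32.0, 29.4 and 39.6 CPM in cKO mice. All cKO mice lay above the controls, and the log2 fold change was 0.48 ± 0.148 (edgeR adjusted p = 0.138, DESeq2 adjusted p = 0.05 after rounding, not called). It was 0.55 without B8 (edgeR adjusted p = 0.00355) and 0.05 with the GC trend removed. *Col24a1* stood at 3.94, 4.80 and 5.84 CPM in controls and at 7.23, 6.97, 5.99 and 6.74 CPM in cKO mice. The groups did not overlap, with a log2 fold change of 0.47 ± 0.199 (0.52 without B8, edgeR adjusted p = 0.0483, and 0.14 with the GC trend removed). The other 6 genes of this class, *Col2a1*, *Col5a1*, *Col5a3*, *Col11a1*, *Col11a2* and *Col27a1*, had log2 fold changes from −0.34 to 0.49, and the groups overlapped for each of them. Without B8, *Col5a1* was at 0.60 and *Col11a1* at 0.59 (edgeR adjusted p = 0.0239 and 0.0270). In all mice with the GC trend removed, *Col5a1* was at 0.49, as before, and *Col11a1* at −0.04.

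Among the fibril-associated collagens, which sit on the surface of larger fibrils, *Col12a1* had the largest difference. It stood at 15.3, 18.3 and 21.0 CPM in controls and at 56.5, 36.3, 21.7 and 37.2 CPM in cKO mice. The groups did not overlap, although B8 was only just above A6, and the log2 fold change was 1.06 ± 0.285, with the lowest unadjusted edgeR p of the 55 genes (0.00432; edgeR adjusted p = 0.138, DESeq2 adjusted p = 0.0170). It was 1.24 without B8 (edgeR adjusted p = 0.000231) and 0.49 with the GC trend removed.

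The 3 genes of collagen IX, a cartilage and vitreous collagen, did not share a direction. *Col9a2* stood at 71.9, 78.5 and 75.7 CPM in controls and at 56.6, 54.4, 85.8 and 56.6 CPM in cKO mice. B1, B7 and B9 lay below the controls and B8 above them, and the log2 fold change was −0.25 ± 0.176. It was −0.43 without B8 (edgeR adjusted p = 0.00384) and 0.15 with the GC trend removed. *Col9a3* stood at 32.8, 32.1 and 27.4 CPM in controls and at 24.7, 19.6, 31.4 and 17.7 CPM in cKO mice, with B8 within the control range and a log2 fold change of −0.40 ± 0.204 (−0.58 without B8, edgeR adjusted p = 0.00684, and −0.12 with the GC trend removed). *Col9a1* stood at 2.32, 1.77 and 2.12 CPM in controls and at 3.53, 3.17, 2.78 and 2.40 CPM in cKO mice. Here all cKO mice lay above the controls, with a log2 fold change of 0.52 ± 0.243.

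*Col16a1* stood at 51.7, 44.1 and 52.3 CPM in controls and at 56.1, 40.5, 47.1 and 28.5 CPM in cKO mice, which overlapped (log2 fold change −0.20 ± 0.212). *Col22a1*, a collagen of tissue junctions, stood at 7.26, 7.92 and 7.63 CPM in controls and at 8.83, 11.1, 8.25 and 13 CPM in cKO mice. Its groups did not overlap, and the log2 fold change was 0.44 ± 0.2 (0.53 without B8, edgeR adjusted p = 0.0265, and 0.18 with the GC trend removed). The other 2 genes of this class described by range, *Col14a1* and *Col20a1*, had means near 2 CPM and log2 fold changes of 0.39 and −0.05.

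*Col26a1* was the 1 gene of the 55 that separated the groups in the lower direction. It stood at 105, 111 and 115 CPM in controls and at 82.3, 52.4, 100 and 55.9 CPM in cKO mice. All cKO mice lay below the controls, with the P2 mice B7 and B9 the lowest, and the log2 fold change was −0.60 ± 0.221 (edgeR adjusted p = 0.138, DESeq2 adjusted p = 0.0729). With the GC trend removed the value was nearly the same, −0.59, and without B8 it was −0.80 (edgeR adjusted p = 0.00128). Against the same controls it was −1.05 for the P2 cKO mice and −0.27 for the P4 cKO mice, and no control was taken at P2.

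Collagen VI forms beaded filaments beside basement membranes and in the meninges. *Col6a1* stood at 18.4, 44.3 and 39.7 CPM in controls and at 43.2, 20.4, 42.8 and 33.8 CPM in cKO mice. *Col6a2* stood at 29.1, 56.3 and 53.9 CPM in controls and at 58.5, 32.6, 59.4 and 37.2 CPM in cKO mice. Both had A2 and B7 as the lowest mice, and their log2 fold changes were 0.03 ± 0.329 and 0.01 ± 0.283. *Col6a3*, the third chain, stood at 12.1, 15.6 and 17.6 CPM in controls and at 23.4, 20.6, 19.1 and 26.2 CPM in cKO mice. Unlike the other chains its groups did not overlap, and the log2 fold change was 0.56 ± 0.181 (edgeR adjusted p = 0.138). It was 0.63 without B8 (edgeR adjusted p = 0.00719) and 0.30 with the GC trend removed. *Col6a6* stood at 1.45, 1.2 and 1.5 CPM in controls and at 1.64, 2.19, 2.46 and 2.16 CPM in cKO mice, also without overlap (log2 fold change 0.62 ± 0.262, or 0.38 with the GC trend removed). The other 7 genes of this mixed class, *Col6a4*, *Col6a5*, *Col7a1*, *Col8a1*, *Col8a2*, *Col10a1* and *Col28a1*, had log2 fold changes from −0.10 to 0.67 and overlapping groups. *Col28a1*, at 0.67, was at 0.86 without B8 (edgeR adjusted p = 0.0459).

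Of the collagens made by neurons, *Col25a1* stood at 62.9, 57.7 and 63.8 CPM in controls and at 105, 116, 54.5 and 121 CPM in cKO mice. Collagen XXV is a transmembrane collagen that motor axons need to reach their muscles. B1, B7 and B9 were well above the controls and B8 was below all of them, and the log2 fold change was 0.69 ± 0.247 (edgeR adjusted p = 0.138). It was 0.89 without B8 (edgeR adjusted p = 9.6e-05) and 0.16 with the GC trend removed. *Col19a1* stood at 1.62, 2.27 and 2.7 CPM in controls and at 4.49, 5.56, 2.46 and 4.28 CPM in cKO mice. B8 lay within the control range, and the log2 fold change was 0.93 ± 0.316 (edgeR adjusted p = 0.138, DESeq2 adjusted p = 0.0476). It was 1.11 without B8 (edgeR adjusted p = 0.00325) and 0.66 with the GC trend removed.

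The other transmembrane collagens did not separate the groups. *Col23a1* stood at 21.0, 24.3 and 31.0 CPM in controls and at 26.1, 21.1, 29.3 and 27.9 CPM in cKO mice (log2 fold change 0.04 ± 0.179). *Col13a1*, the collagen of the neuromuscular junction, stood at 1.74, 2.62 and 5.11 CPM in controls and at 2.64, 1.96, 3.57 and 2.87 CPM in cKO mice, with A6 the highest mouse and a log2 fold change of −0.20 ± 0.368. *Col17a1*, a hemidesmosome collagen, stayed near 1 CPM or below in all mice, with −0.35 ± 0.358. The 10 neuronal markers summed to 5460 to 6320 CPM in controls and 4640 to 5500 CPM in cKO mice. Of these, 4 had a log2 fold change above 0 and 6 below, with a median of −0.14. Their lowest p belonged to *Gad2*, an enzyme gene of inhibitory neurons (log2 fold change 0.65, DESeq2 adjusted p = 0.0361, or 0.34 and not called with the GC trend removed), and *Rbfox3* (−0.58), and the part of neuron number or type in the *Col25a1* and *Col19a1* levels was not tested.

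Chains of one collagen or laminin family can be compared as a ratio within a library, which does not depend on the library size. *Col4a1* to *Col4a2* was 0.906, 0.862 and 0.846 in controls and 1.12, 1.2, 0.925 and 1.16 in cKO mice, without overlap. With the GC trend removed it was 0.942, 0.941 and 0.879 in controls and 1.10, 1.09, 0.976 and 1.04 in cKO mice, again without overlap. *Lama2* to *Lama4* was 0.396, 0.441 and 0.455 in controls and 0.623, 0.574, 0.474 and 0.775 in cKO mice, and it too did not overlap. *Lamc1* to *Lamb1*, whose GC contents were 50.9% and 50.87%, was 1.77, 1.42 and 1.93 in controls and 1.68, 2.04, 1.45 and 2.48 in cKO mice, and it overlapped. Of the other ratios computed, only *Col9a1* to *Col9a2* separated the groups. It was 0.0323, 0.0226 and 0.028 in controls and 0.0623, 0.0582, 0.0325 and 0.0424 in cKO mice. With the GC trend removed its groups overlapped (0.0381 in A2 and 0.0304 in B9).

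*Col1a2* has a GC content of 46.83% and *Col1a1* of 57.77%, and their ratio was 1.34, 1.00 and 1.10 in controls and 1.46, 1.86, 1.02 and 2.63 in cKO mice. *Col11a1* (46.86%) to *Col11a2* (64.12%) was 0.692, 0.578 and 0.781 in controls and 1.19, 1.71, 0.703 and 1.63 in cKO mice. B8 lay within the control range for both ratios. The spread of the *Col11a1* to *Col11a2* ratio over the 7 mice, 1.56 on the log2 scale, became 0.35 with the GC trend removed, and that of *Col1a2* to *Col1a1* went from 1.39 to 0.58. *Col6a3* (54.21%) to *Col6a2* (56.87%) was 0.417, 0.278 and 0.326 in controls and 0.400, 0.633, 0.322 and 0.704 in cKO mice. The P2 mice B7 and B9 had the highest values of that ratio, and the P4 cKO mice lay within the control range.

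**Figure D5:**
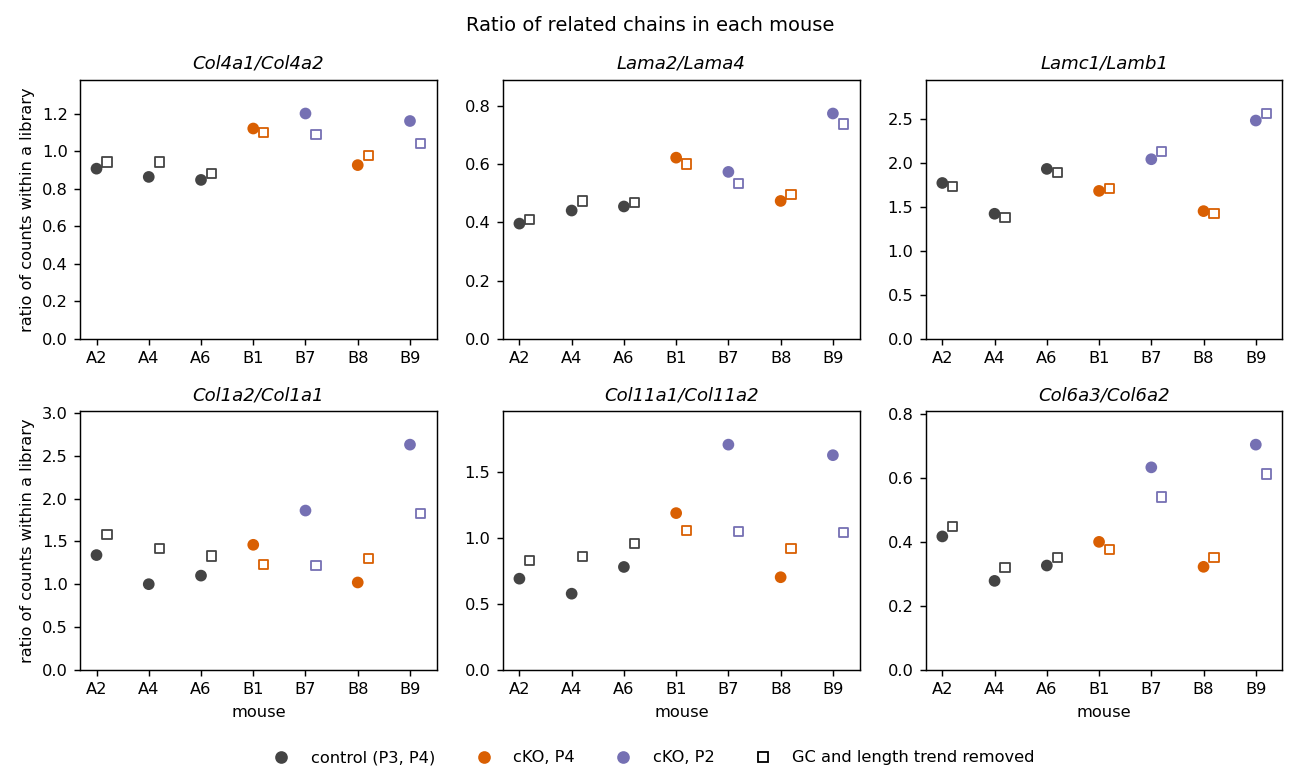
Ratio of the counts of related chains in each of the 7 mice, for the counts as deposited (filled circles) and with the GC and length trend of each library removed (open squares); the vertical axes start at 0. *Col4a1* to *Col4a2* separates cKO mice from controls in both, while the *Col11a1* to *Col11a2* ratio, from 0.578 to 1.71 as deposited, becomes nearly level.

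Age could be compared only among the cKO mice, 2 at P2 and 2 at P4. The P2 mice B7 and B9 also had the most counts on genes of all mice, 67792192 and 87572085, against 28116582 in B1 and 39251318 in B8. Their share of counted reads that named no gene was the lowest, 31.76% and 30.98%, against 37.91% in B1 and 37.47% in B8. Age and these library differences cannot be told apart here. In edgeR, 0 of the 55 genes were called, and 0% of all genes. At an unadjusted p under 0.05 there were 12 of the 55 genes, 4 higher and 8 lower at P2, where 15.7% of all genes passed, 6.39% higher and 9.3% lower. *Col1a1* had the lowest p, with a log2 fold change (P2 minus P4) of −1.15 ± 0.223 (edgeR adjusted p = 0.298, DESeq2 adjusted p = 0.00546), and it was the 1 gene of the 55 that DESeq2 called, where it called 1.49% of all genes lower. *Col6a2* and *Col26a1* followed, each at −0.76 (edgeR adjusted p = 0.298). Limma-voom called 0 of the 55 genes and 0.0572% of all genes. Leaving out any 1 cKO mouse left a single mouse at P2 or at P4, so calls from such fits are not given. All 15 meningeal markers were also below 0 in the comparison of the 4 cKO mice by age, with a median of −0.48, and their part in the *Col1a1* difference was not tested. The 3 controls against the 2 P2 cKO mice, which share controls with the comparison of genotypes, gave 24 calls among the 55 genes, 18 higher and 6 lower, where 22.9% and 24% of all genes were called. The controls against the 2 P4 cKO mice gave 0 calls (0.00476% of all genes), with 48 of 55 log2 fold changes above 0 and a median of 0.36.

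The genes whose products process, link, bind and degrade collagens and laminins were read from 4 lists in the same fit. In edgeR 0 of their genes were called. Over all genes, 30.4% had an unadjusted p under 0.05, and DESeq2 called 7.41% higher and 3.04% lower, which are the shares for the counts that follow. Of the 15 basement membrane partners, which bind or link laminin and collagen IV, 14 had a log2 fold change above 0 with a median of 0.37, and 7 had an unadjusted p under 0.05; DESeq2 called 5, all higher. The 2 with the lowest p were *Frem2* and *Frem1*, genes of the Fraser complex that anchors epithelia. *Frem2* stood at 5.56, 6 and 5.70 CPM in controls and at 14.6, 19.3, 7.98 and 17.8 CPM in cKO mice, without overlap, and its log2 fold change was 1.38 (edgeR adjusted p = 0.138, DESeq2 adjusted p = 0.00214). *Frem1* stood at 3.69, 3 and 2.99 CPM in controls and at 5.95, 7.82, 4.34 and 7.91 CPM in cKO mice, without overlap (log2 fold change 1.02).

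*Sparc* was the only partner with a log2 fold change below 0, at −0.20, or −0.13 with the GC trend removed. The 4 partners that follow were named after their values were seen, and all 4 had a log2 fold change above 0. *Nid1*, nidogen, which bridges both networks, stood at 69.7, 76.1 and 69.6 CPM in controls and at 117, 122, 73.8 and 154 CPM in cKO mice. B8 lay within the control range, and the log2 fold change was 0.70 (DESeq2 adjusted p = 0.0453). *Fn1*, fibronectin, stood at 64.8, 102 and 93.3 CPM in controls and at 183, 154, 104 and 195 CPM in cKO mice, without overlap (log2 fold change 0.87, DESeq2 adjusted p = 0.0238). *Agrn* and *Hspg2*, the heparan sulfate proteoglycans agrin and perlecan, had log2 fold changes of 0.29 and 0.37 (DESeq2 adjusted p = 0.138 and 0.247). With the GC trend removed, *Frem2* was at 0.91 and still called by DESeq2 (adjusted p = 0.00507). *Frem1* (0.45), *Nid1* (0.44) and *Fn1* (0.55) were then not called (DESeq2 adjusted p = 0.0945, 0.0949 and 0.0717).

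The enzymes that modify and cleave procollagen did not share a direction. Of 30 processing genes, 12 had a log2 fold change above 0 and 18 below, with a median of −0.04; 7 had an unadjusted p under 0.05, and DESeq2 called 3 higher and 1 lower. The 2 with the lowest p were procollagen proteinases, *Tll1* (0.996, 1.77 and 1.28 CPM in controls against 3.53, 6.78, 2.17 and 6.49 CPM in cKO mice, log2 fold change 1.81, DESeq2 adjusted p = 0.00465) and *Adamts3* (3.40, 1.27 and 2.34 CPM against 12.4, 15.8, 2.22 and 15.2 CPM, log2 fold change 2.31, DESeq2 adjusted p = 0.0342). B8 lay within the control range for *Adamts3* but not for *Tll1*. DESeq2 also called both with the GC trend removed, where the log2 fold change was 1.43 for *Tll1* and 2.12 for *Adamts3*.

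Of the collagen and laminin receptors, 17 of 18 were tested, 11 above 0 and 6 below with a median of 0.19; 6 had an unadjusted p under 0.05, and DESeq2 called 3, all higher. *Itga2*, an integrin chain for collagen, stood at 1.41, 1.07 and 1.21 CPM in controls and at 2.64, 2.90, 1.58 and 2.80 CPM in cKO mice (log2 fold change 1.02). *Ddr2*, a receptor kinase for fibrillar collagen, stood at 11.2, 9.97 and 14.1 CPM in controls and at 23.4, 16.7, 14.3 and 30 CPM in cKO mice (log2 fold change 0.84). Neither gene overlapped between groups, *Ddr2* by the small margin of B8 over A6. Removing the GC trend gave 0.62 for *Itga2* and 0.39 for *Ddr2*, neither called by DESeq2 (adjusted p = 0.0985 and 0.206). Of the matrix-degrading enzymes and their inhibitors, 11 of 12 were tested, 4 above 0 and 7 below with a median of −0.02; 3 had an unadjusted p under 0.05, and DESeq2 called 2, both higher. These were *Timp3*, an inhibitor held in the matrix, at 29.2, 13.8 and 27.0 CPM in controls and at 56.1, 53.0, 34.8 and 66.0 CPM in cKO mice (log2 fold change 1.17), and *Mmp16*, a membrane-bound metalloproteinase, at 24.6, 24.8 and 25.7 CPM in controls and at 57.7, 78.0, 25.7 and 69.5 CPM in cKO mice (log2 fold change 1.2). The groups did not overlap for *Timp3*, and B8 lay with the controls for *Mmp16*. Their log2 fold changes were 0.79 for *Timp3* and 0.68 for *Mmp16* with the GC trend removed, both called by DESeq2 (adjusted p = 0.0244 and 0.0317).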

How the data were processed

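Strand-specific polyA libraries of dorsal midbrain from 3 control and 4 cKO mice were sequenced by the authors in pairs of reads. Per the labels and methods, trimmed reads were mapped with TopHat2 and Bowtie2 (GRCm38.p5), and HTSeq counted them per gene of GENCODE vM15; strand and overlap options are not given in the sources used here. The authors deposited these counts unnormalized, for 52636 genes. Entries that name no gene (30.98% to 38.18% of the counted reads) were left out. Counts on genes were 23588248 to 87572085 per library, and the 55 genes described had at least 6 counts in every library. Symbols, exon lengths and GC content came from GENCODE vM21, which has the same build; 52489 identifiers matched. Of the 55 genes, 16 share exon bases with another gene, at most 6.3% of the exon length (*Lamc3*).

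edgeR 4.0.16 (R 4.3.3) was fitted to all genes with filterByExpr (minimum count 10, minimum total 15), TMM factors and glmQLFTest on genotype alone, and p-values were Benjamini-Hochberg adjusted over all 21817 genes tested, with a threshold of 0.05. The SE of a fold change was derived from the coefficient and its F statistic. Alternatives were DESeq2 1.42.0, limma-voom (limma 3.58.1) with sample weights, RLE and upper-quartile factors, 2 filters, postnatal day as covariate, subsets by age, each mouse left out, and removal of a smooth GC content and exon length trend per library (mgcv 1.9.3). The fits were tested on simulated counts. P-values measure the spread between mice; the libraries of a group differed by more than sampling noise (chi-square per degree of freedom 7.72 for A2 and A6 to 218 for B8 and B9). The shares of all genes called, given for comparison, are over the genes with an adjusted p.

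The members and gene lists were chosen with earlier results of these data known. Values in every mouse are given for the 3 members of each role with the highest level per length, 12 listed members, every member of at least 1 CPM whose groups do not overlap, and the 3 members with the lowest p in each direction; of other lists, the 2 genes with the lowest p. Among these, 1 member and 1 marker that this rule names are not reported here; both stay in the fits, counts and sums. For the lists not in the report, the sums, the median log2 fold change and the 2 genes with the lowest p (log2 fold change) are given here. Markers of cartilage and bone (12 genes, 33.0 to 34.1 CPM summed in controls and 25.3 to 37.0 in cKO mice, median −0.20, *Hapln1* 0.75 and *Alpl* −0.32), choroid plexus (8 genes, 110 to 139 and 113 to 136, median 0.00, *Kl* 0.53 and *Kcne2* 0.78), astrocytes and radial glia (10 genes, 2310 to 2600 and 1740 to 2380, median −0.24 with 4 above 0 and 6 below, *Slc1a2* 0.76 and *Aqp4* 0.48), forebrain (8 genes, 99.9 to 125 and 94.0 to 118, median −0.12, *Emx1* −1.27 and *Tbr1* −1.18) and red blood cells (7 genes, 133 to 499 and 58.5 to 182, median −1.13, *Hbb-bs* −1.13) were also summed, and for the dorsal midbrain list (median −0.10) the genes were *Barhl2* (−0.37) and *En1* (1.11).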

Additional observations from a re-analysis of the deposited data

Results flagged for a closer look

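Of 94 values tested within the 4 cKO mice with Dixon's test, 3 had a mouse far from the others, and chance alone flags about 1 group in 20. *Col9a2* was highest in B8, at 85.8 CPM against 54.4 to 56.6 in the other cKO mice, with a gap of 0.931 of the whole range. *Lama5* was highest in B1, at 11.6 CPM against 8.15 to 8.46, with a gap of 0.912. *Lamc3* was lowest in B7, at 6.44 CPM against 10.3 to 10.5, with a gap of 0.946. The causes were not tested.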

How the results depend on the processing

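The number of collagen and laminin genes called for genotype was 0 in edgeR with RLE or upper-quartile factors, either filter, day as covariate, the GC and length trend removed, P4 mice only and controls against P4 cKO mice. It was 6 with DESeq2, 23 with limma-voom, 24 for controls against P2 cKO mice, and, for alternatives chosen after seeing the data, 3 with DESeq2 and the trend removed and 11 without B8 and the trend removed. Leaving out 1 mouse gave 0 to 24 calls over edgeR and DESeq2, above 0 only without B8 (23 in edgeR and 24 in DESeq2). The 4 lists of matrix-related genes had 0 calls in edgeR, 14 with DESeq2, 37 with limma-voom, 40 for P2 cKO mice, 7 with DESeq2 and the trend removed, 18 without B8 and the trend removed, and 0 to 39 with 1 mouse left out over both tools (without B8, 37 in edgeR and 39 in DESeq2; without any other mouse, 0 and at most 4). The age comparison had 0 calls in edgeR, 1 with DESeq2 and 3 with the filter of 1 count. Its fits with 1 mouse left out hold a single mouse at P2 or at P4, so their calls are not given. The median log2 fold change of the 55 genes, 0.38, was 0.14 to 0.18 in the 3 fits with the trend removed (0.15, 0.14 with DESeq2 and 0.18 without B8) and 0.27 to 0.43 in the other fits. No paired analysis was possible because the groups share no replicate numbers in the labels (A2, A4 and A6 against B1, B7, B8 and B9).

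Among the named genes, 917 single values under an alternative kept their direction and side of the threshold, 165 kept their direction and passed the threshold, and 48 changed sign, none of them past the threshold in the edgeR fit to all mice. With the trend removed, *Col6a2* was −0.01 (−0.03 with DESeq2), *Col9a2* 0.15 (0.03), *Col1a2* −0.08 (−0.07), *Col3a1* −0.15 (−0.14) and *Col13a1* 0.02; of the other members, *Col11a1* (−0.04), *Col18a1* (0.09), *Col8a2* (0.14) and *Col20a1* (0.10) also changed sign. With day as covariate, *Col15a1* was 0.07 and *Lamb3* 0.12. In P4 mice only, *Col1a1* was 0.68 and *Lamb3* 0.35. Against P4 cKO mice, *Col15a1* was 0.08, *Col16a1* 0.07, *Col1a1* 0.36 and *Lamb3* 0.30. Against P2 cKO mice, *Col6a1* was −0.35, *Col6a2* −0.43 and *Col23a1* −0.07. With limma-voom, *Col6a1* was −0.10, *Col6a2* −0.13 and *Col23a1* −0.10. With at least 10 counts in every library *Lamb3* was 0.00. With 1 mouse left out and no other choice altered, *Col15a1* ranged from −0.22 to 0.10, *Col6a1* from −0.27 to 0.27, *Col6a2* from −0.24 to 0.18, *Col1a1* from −0.46 to 0.21, *Col3a1* from −0.01 to 0.49, *Lamb3* from −0.20 to 0.21, *Col13a1* from −0.49 to 0.32, and *Col23a1* from −0.09 to 0.20. *Col9a2* (−0.43 to −0.17), *Col1a2* (0.11 to 0.62), *Col5a2* (0.42 to 0.55) and the meningeal marker *Twist1* (−0.82 to −0.40) kept their sign there. Without B8 and with the trend removed, *Col9a2* was 0.18, *Col1a2* −0.28, *Col3a1* −0.38, *Col5a2* −0.02 and *Twist1* 0.05. The causes of these changes were not tested. With 3 and 4 mice, differences below the spread between mice cannot be shown, and genes near 1 CPM rest on few counts.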
